A study of Mus musculus with 3647 samples.

Results

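Cadherins and protocadherins are calcium-dependent adhesion proteins that neurons and glia use to recognise each other. The genes described here are every symbol made of Cdh and a digit or beginning with Pcdh, with opposite-strand and pseudogene names left out. They number 94 of the 23420 genes measured. By family, 5 are classical type I cadherins, 13 classical type II cadherins, 5 other cadherins, 12 nonclustered protocadherins and 59 clustered protocadherins. The clustered genes comprise 15 alpha (Pcdha), 22 beta (Pcdhb) and 22 gamma (Pcdhg) members, of which 5 are C-type. In at least 1 of the cell classes compared, 79 members averaged 10 TPM or more, TPM being a length-scaled share of a nucleus's transcripts. Cdh3, Cdh5, Cdh16, Cdh17, Cdh26 and Pcdh12 stayed under 1 TPM in every class compared, although Cdh16 averaged 1.22 TPM in the 14 striatal GABAergic nuclei.

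The data are single-nucleus Smart-seq2 profiles from mouse brain, centred on the thalamic reticular nucleus (TRN), a thin sheet of inhibitory neurons that surrounds the thalamus, with Patch-seq cells alongside. Values used here cover 2653 of 3647 samples. They cover about 750 TRN nuclei sorted for the neuronal protein NeuN (8 plates), about 690 TRN nuclei sorted by DNA dye only (13 plates) and 240 nuclei of adjacent thalamus and globus pallidus (4 plates). From 4 forebrain regions came GFP-sorted nuclei, which the study's design describes as Pvalb+: 440 from hippocampus, about 170 from M2 cortex, about 150 from somatosensory cortex and 71 from striatum. A further 43 hippocampal nuclei carry no sort label, and 95 profiles are Patch-seq cells in 3 batches. Strain, genotype, age and animal are not in the labels. Each group was therefore treated as a single sample, without test, p-value or standard error. Plates are described by their range and are not biological replicates.

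Nuclei were assigned to classes from marker genes that include no cadherin, after clustering without the members. The classes used, with sizes to the nearest 10 where marked about, were about 690 TRN GABAergic nuclei, about 200 thalamic glutamatergic nuclei from the TRN plates, 300 oligodendrocyte-like and 80 astrocyte-like nuclei, 40 GABAergic nuclei of the adjacent tissue with the TRN markers, 320 GFP-sorted GABAergic nuclei of hippocampus and both cortices, and about 240 GFP-sorted glutamatergic nuclei. Within the TRN GABAergic class, about 270 nuclei had Spp1 and no Ecel1, 220 had Ecel1 and no Spp1, 37 had both and about 170 had neither. A separate GABAergic cluster of about 140 TRN nuclei with little Pvalb was kept apart. The 6 TRN markers summed to 2332.1 TPM in TRN GABAergic nuclei, against 70.995 TPM in thalamic glutamatergic nuclei. Median detected genes were 4795 in TRN GABAergic, 4969 in thalamic glutamatergic, 4285.5 in GFP-sorted GABAergic, 1990.5 in oligodendrocyte-like and 2160.5 in astrocyte-like nuclei. TPM, the transcript measure used here, keep no record of read depth, which is unknown. Throughout, a level is the mean TPM over the nuclei of a class. A ratio is log2 of the quotient of 2 such means after adding 1 TPM. A gene is said to differ where the ratio passes 2-fold in either direction and 1 of the means is at least 1 TPM.

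Classical cadherins bind the same or related cadherins on the neighbouring cell and hold on to actin through catenins. Type I members such as Cdh2 (N-cadherin) give strong general adhesion, whereas type II members occur in combinations that differ between brain nuclei. Nonclustered protocadherins of the delta group bind weakly and signal from the cell surface. The alpha, beta and gamma protocadherins lie in 3 neighbouring arrays, and each neuron uses its own small assortment of their variable exons. In the alpha and gamma arrays each variable exon is spliced to constant exons that all members of the array share. Reads in the shared exons cannot be assigned to a single isoform with certainty, so isoform levels carry that uncertainty. On mm10, the build named in the submitters' processing notes, 60 of the 92 members found in the annotation lie on chromosome 18. There the Pcdha array spans positions 36930184 to 37187661, the Pcdhb array 37264938 to 37524479 and the Pcdhg array 37661793 to 37841873, all on the plus strand.

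In TRN GABAergic nuclei a pair of members stood far above the rest. Cdh13 (T-cadherin), which is tethered to the membrane by a lipid anchor and lacks the catenin-binding tail, averaged 599.7 TPM and was found in 88.6% (95% interval 85.996 to 90.9%) of nuclei. Pcdh9, a delta protocadherin, averaged 583.4 TPM and was found in 90.9% (95% interval 88.5 to 92.9%) of nuclei. These intervals are exact binomial and, like all others given, cover counting error only. The next highest members were the type II cadherins Cdh8 at 79.9 TPM, Cdh6 at 75.3 TPM and Cdh18 at 67.8 TPM, then the delta protocadherin Pcdh7 at 52.96 TPM and the type I cadherin Cdh2 at 52.4 TPM. Summed over their genes, nonclustered protocadherins reached 803.2 TPM, type II cadherins 313.8 TPM and type I cadherins 57.5 TPM.

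Pcdh10 and Pcdh17, delta protocadherins that guide axons in mice, were found in each of the main neuron classes. Pcdh10 averaged 24.8 TPM in TRN GABAergic, 12.7 TPM in thalamic glutamatergic and 18.5 TPM in GFP-sorted GABAergic nuclei. Pcdh17 averaged 25.98, 22.4 and 41.9 TPM in the same classes. Neither passed 2-fold between TRN GABAergic nuclei and either of the other classes named. In the 14 striatal GABAergic nuclei they stood lower, at 5.24 and 7.56 TPM.

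**Figure D1:**
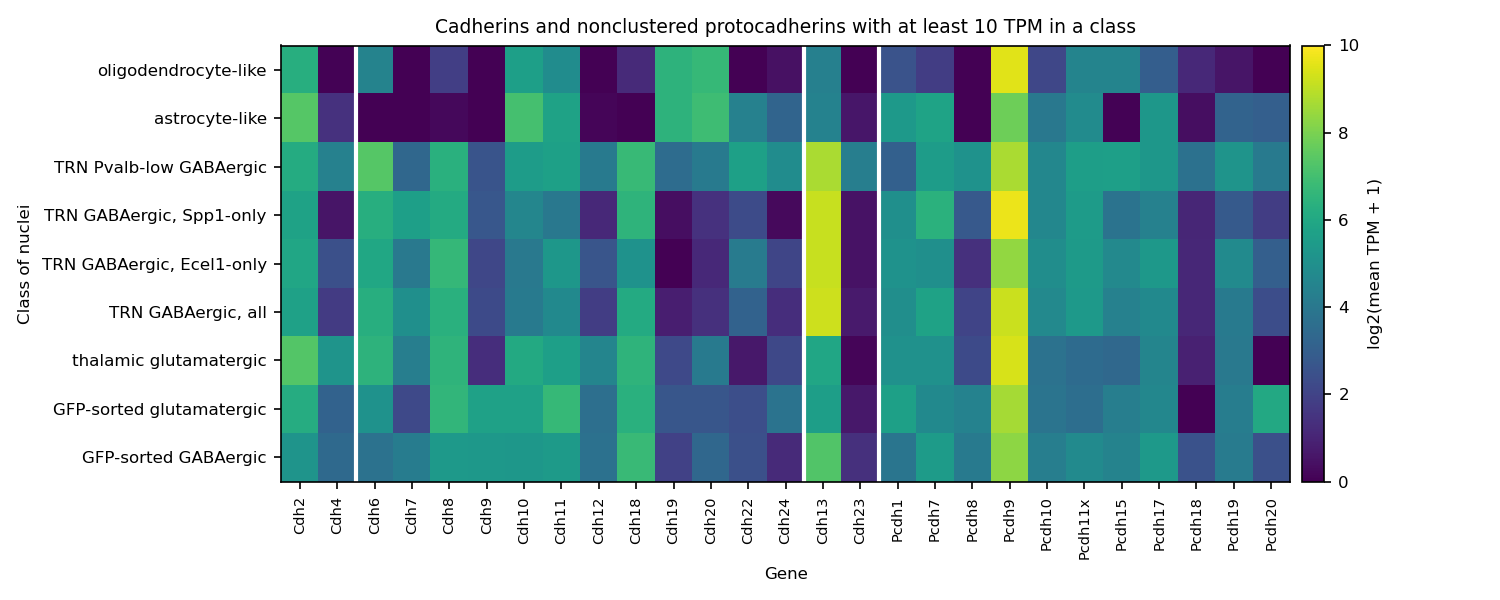
Mean level of cadherin and protocadherin genes outside the clustered arrays, by cell class, on a log2(TPM + 1) colour scale. Cdh13 is at 599.7 TPM in TRN GABAergic and 58.8 TPM in thalamic glutamatergic nuclei, and Cdh20 is at 103.3 TPM in oligodendrocyte-like and 1.63 TPM in TRN GABAergic nuclei.

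Comparing TRN GABAergic with thalamic glutamatergic nuclei asks what sets the reticular neurons apart from the relay neurons sorted on the same plates. Outside the arrays, 5 of 27 tested members were higher in TRN GABAergic nuclei and 6 were lower. Over all genes tested, 11.5% were higher and 12.4% lower by the same rule. The members' shares were 18.5% and 22.2%, and their median ratio was -0.17 beside -0.01 over all genes. Among the type I and type II cadherins, Cdh22 alone was higher and 6 were lower.

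Cdh13 had the largest ratio among the members higher in TRN GABAergic nuclei. Its plate means in TRN GABAergic nuclei had a lowest, median and highest value of 248.5, 589.4 and 1122.2 TPM over 19 plates, against 5.91, 55.3 and 119.2 TPM over 9 plates of thalamic glutamatergic nuclei. The plate ranges did not overlap, and Cdh13 was higher in TRN GABAergic nuclei on 9 of 9 plates that held both classes (log2 ratio 3.33). The share of nuclei with Cdh13 was 88.6% in the TRN GABAergic class and 31.8% (95% interval 25.4 to 38.8%) in the thalamic glutamatergic class. Pcdh11x, an X-linked delta protocadherin, averaged 41.6 TPM in TRN GABAergic and 10.2 TPM in thalamic glutamatergic nuclei, and was higher on 9 of 9 shared plates. The type II cadherin Cdh22 averaged 7.75 TPM in TRN GABAergic nuclei and 0.568 TPM in thalamic glutamatergic nuclei. Pcdh20 averaged 4.08 TPM in TRN GABAergic nuclei and was listed at 0 in every thalamic glutamatergic nucleus, which allows a share of nuclei with a value above 0 of up to 1.52%, taken as 3 nuclei of the total (the exact binomial 95% interval ends at 1.85%). Pcdh15, a component of the tip links of hair cells, passed 2-fold narrowly (20.1 against 9.34 TPM) and was under 2-fold on NeuN-selected plates alone (log2 ratio 0.87).

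The members lower in TRN GABAergic nuclei were both common type I cadherins of neurons and several type II cadherins. Cdh2 had plate means of 22.9 to 89.6 TPM in TRN GABAergic nuclei, against 73.6 to 247.03 TPM in thalamic glutamatergic nuclei, and was lower on 9 of 9 shared plates (means 52.4 and 161.3 TPM). Cdh4 (R-cadherin), also type I, averaged 2.33 TPM in TRN GABAergic and 35.4 TPM in thalamic glutamatergic nuclei, a log2 ratio of -3.45. Of the type II cadherins, Cdh10 averaged 16.6 TPM in TRN GABAergic and 65.9 TPM in thalamic glutamatergic nuclei. Cdh12 stood at 2.55 TPM in TRN GABAergic nuclei, against 22.4 TPM, and Cdh20 at 1.63 TPM, against 16.3 TPM. Cdh4 and Cdh12 were lower on every shared plate (9 of 9 each). Cdh19 was lower too (0.766 against 3.65 TPM), but its direction turned on plates without NeuN selection (log2 ratio 0.44). The astrocyte markers summed to 167.4 TPM in TRN GABAergic nuclei and 520.4 TPM in thalamic glutamatergic nuclei. Cdh2, Cdh10, Cdh19 and Cdh20 were all high in astrocyte-like nuclei, Cdh2 at 165.5 TPM and found in 56.2% of them. The part of that signal in these differences was not tested.

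**Figure D2:**
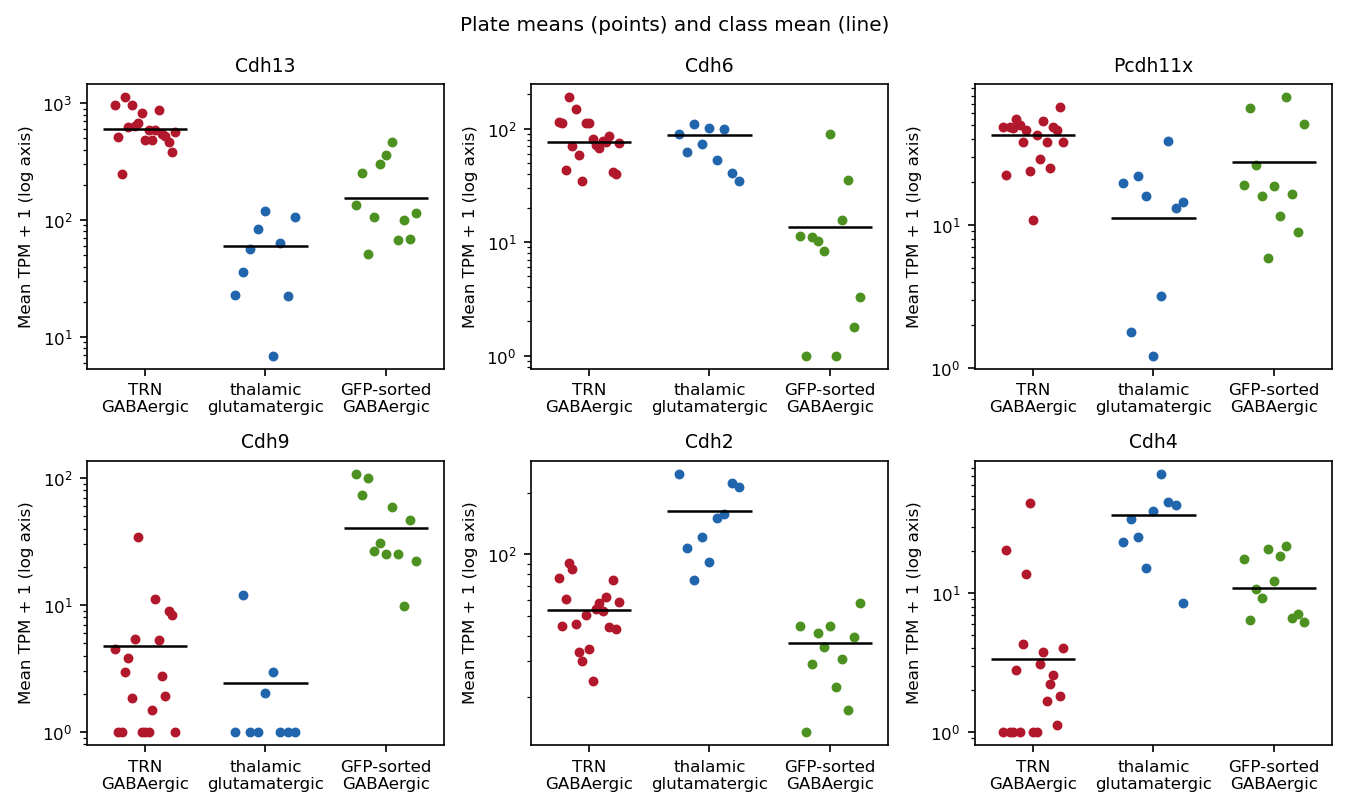
Plate means in TPM of selected members in TRN GABAergic (left in each panel), thalamic glutamatergic (middle) and GFP-sorted GABAergic nuclei (right). There is 1 point per plate with at least 10 nuclei of the class, and lines mark class means. The Cdh13 points of TRN GABAergic nuclei (248.5 to 1122.2 TPM) all lie above those of thalamic glutamatergic nuclei (5.91 to 119.2 TPM).

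A further comparison placed TRN GABAergic nuclei beside the GABAergic nuclei sorted by GFP, whose 3 regions were given equal weight. Outside the arrays, 4 of 28 tested members were higher in TRN GABAergic nuclei and 8 lower, beside 8.42% and 16.3% of all genes. The members' shares were 14.3% and 28.6%. These 2 classes were processed in separate tables and sorted differently, so tissue, sort and table cannot be told apart.

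The members higher in the TRN were led by Cdh6 and Cdh13. Cdh6, a type II cadherin, had plate means of 33.9, 75.9 and 187.5 TPM (lowest, median and highest) in TRN GABAergic nuclei, against 0, 9.33 and 88.4 TPM in GFP-sorted GABAergic nuclei (log2 ratio 2.48). Cdh13 stood at 599.7 TPM in the TRN, against 274.3 TPM in hippocampal, 95.6 TPM in M2 and 91.4 TPM in somatosensory GABAergic nuclei. The 14 striatal GABAergic nuclei averaged 133.1 TPM. The level in hippocampus was thus the nearest to that of the TRN, and the cortical regions lay close together. Pcdh1, a delta protocadherin, had means of 30.1 TPM in TRN and 13.8 TPM in GFP-sorted nuclei, and fell under 2-fold when the striatum was added as a region (log2 ratio 0.90). Cdh15 (M-cadherin), known from muscle, was low in both (2.62 and 0.340 TPM).

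Cdh9, a type II cadherin that guides synapse formation in retina and hippocampus of mice, gave the greatest difference in the other direction. It averaged 3.77 TPM in TRN GABAergic nuclei, against 65.1 TPM in hippocampus, 19.3 TPM in M2 cortex and 33.3 TPM in somatosensory cortex. Its log2 ratio was -3.08. Cdh12 and Cdh20 were also lower in the TRN, at 2.55 and 1.63 TPM, against 12.2 and 9.22 TPM in GFP-sorted nuclei. Among delta protocadherins, Pcdh8 averaged 3.14 TPM in TRN GABAergic nuclei and 16.1 TPM in GFP-sorted nuclei, and Pcdh18 1.18 and 4.67 TPM. Cdh4, Pcdh8 and Pcdh18 lay under 2-fold once the Pvalb-low cluster was counted with the TRN (log2 ratios -0.80, -0.91 and -0.50).

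GFP-sorted nuclei with glutamatergic markers were compared with GFP-sorted GABAergic nuclei, as a second setting for the excitatory-inhibitory contrast. Here the GABAergic nuclei of all 4 regions were pooled (about 330), so that their means differ slightly from those above, which weight hippocampus, M2 and somatosensory cortex equally. Outside the arrays, 7 of 28 tested members were higher in glutamatergic nuclei and 4 lower, beside 18.1% and 14% of all genes. Pcdh20 averaged 64.1 TPM in GFP-sorted glutamatergic nuclei and 4.11 TPM in GFP-sorted GABAergic nuclei (log2 ratio 3.67). In the thalamic plates Pcdh20 had gone the other way, at 4.08 TPM in TRN GABAergic nuclei and listed at 0 in glutamatergic ones. Cdh24 (13.2 against 1.33 TPM), Cdh11 (103.2 against 40.6 TPM), Cdh6 (33.3 against 11.97 TPM) and Pcdh1 (49.8 against 14.04 TPM) were also higher in glutamatergic nuclei. Cdh8, at 94.6 against 41.6 TPM, passed 2-fold here but not with classes drawn by marker gates (log2 ratio 0.54).

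Cdh13 and Pcdh11x were lower in glutamatergic nuclei in the forebrain as in the thalamus. Cdh13 averaged 47.6 TPM in GFP-sorted glutamatergic nuclei, against 148.6 TPM in GFP-sorted GABAergic nuclei. Pcdh11x averaged 11.3 TPM in GFP-sorted glutamatergic nuclei, against 28.5 TPM in GABAergic ones. The GABAergic class thus had the higher mean of both genes in both comparisons, of which the forebrain one pooled unmatched regions. Cdh7 (3.59 against 16.5 TPM) was lower as well, and Pcdh18 was listed at 0 in every glutamatergic nucleus (a share of up to 1.23% by 3 nuclei of the total and 1.51% by the exact interval), against 4.18 TPM in GABAergic nuclei.

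Glia of the TRN plates were set against the TRN GABAergic nuclei. In oligodendrocyte-like nuclei, 4 of 28 tested members outside the arrays were higher than in TRN GABAergic nuclei and 17 were lower, beside 16.6% and 37.9% of all genes. In astrocyte-like nuclei, 7 of 27 were higher and 11 lower, beside 19.8% and 41%. The members' shares were 14.3% higher and 60.7% lower in oligodendrocyte-like nuclei, and 25.9% higher and 40.7% lower in astrocyte-like nuclei. Only the lower share in oligodendrocyte-like and the higher share in astrocyte-like nuclei thus lay above those of all genes. The smaller number of detected genes in glial nuclei (medians of 1990.5 and 2160.5, against 4795) moved with the lower calls, and its part in them was not tested.

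The members higher in glia were led by the type II cadherins Cdh19, Cdh20 and Cdh10. Cdh20 averaged 103.3 TPM in oligodendrocyte-like and 118.97 TPM in astrocyte-like nuclei, against 1.63 TPM in TRN GABAergic nuclei. Its share of nuclei was 34% (95% interval 28.7 to 39.7%) in the oligodendrocyte-like and 2.02% (95% interval 1.11 to 3.37%) in the TRN GABAergic class, and it was higher on 11 of 11 plates with both classes. Cdh19, known from Schwann cells and other neural crest derivatives, averaged 87.5 TPM in oligodendrocyte-like and 88.2 TPM in astrocyte-like nuclei, against 0.766 TPM in TRN GABAergic nuclei. Cdh10 averaged 49.4 and 132.8 TPM in these glial classes, against 16.6 TPM. Thalamic glutamatergic nuclei lay between the glial and the TRN GABAergic level for Cdh20, at 16.3 TPM. Cdh1 (E-cadherin) reached 2.11 TPM in oligodendrocyte-like nuclei and 0.0570 TPM in TRN GABAergic nuclei. It was found in only 8 of 300 oligodendrocyte-like nuclei, with a median of 2.36 TPM where found. Its mean there rests mostly on 1 nucleus at 602.05 TPM.

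Several type II cadherins of neurons, Cdh7, Cdh8, Cdh9, Cdh12 and Cdh18, averaged under 3 TPM in both glial classes. Of these, Cdh9 and Cdh12 were also low in TRN GABAergic nuclei, at the levels given above. Cdh7 was listed at 0 in all 300 oligodendrocyte-like and all 80 astrocyte-like nuclei, against 30.2 TPM in TRN GABAergic nuclei. A count of 0 allows a share of up to 1% of these oligodendrocyte-like and 3.75% of these astrocyte-like nuclei by 3 nuclei of the total, and up to 1.22% and 4.51% by the exact interval, for counting error only. Cdh18 averaged 1.30 TPM in oligodendrocyte-like nuclei and was listed at 0 in astrocyte-like nuclei, against 67.8 TPM in TRN GABAergic nuclei. Cdh8 stood at 2.61 and 0.175 TPM in the glial classes, against 79.9 TPM. Others did not have low means in both. Cdh6 averaged 21.3 TPM in oligodendrocyte-like nuclei, from 15 of 300 nuclei, and was listed at 0 in astrocyte-like nuclei, against 75.3 TPM in TRN GABAergic nuclei. Cdh11 averaged 27.9 TPM in oligodendrocyte-like and 53.6 TPM in astrocyte-like nuclei, against 26.05 TPM in TRN GABAergic nuclei, and was found in 37.7% and 52.5% of the glial nuclei. Cdh22 averaged 19.8 TPM in astrocyte-like nuclei, from 4 of 80 nuclei, against 7.75 TPM in TRN GABAergic nuclei. Cdh13 stood at 19.5 TPM in oligodendrocyte-like and 20.5 TPM in astrocyte-like nuclei, against 599.7 TPM. These glial means rest on 13 of 300 and 2 of 80 nuclei. Pcdh9 kept a high level in both: it averaged 758.01 TPM in oligodendrocyte-like and 223.5 TPM in astrocyte-like nuclei, against 583.4 TPM in TRN GABAergic nuclei, so that the astrocyte-like class passed 2-fold and the oligodendrocyte-like class did not. It was found in 88% (95% interval 83.8 to 91.5%) of oligodendrocyte-like nuclei. Pcdh7, its delta relative, averaged 2.55 TPM in oligodendrocyte-like nuclei and 52.96 TPM in TRN GABAergic nuclei.

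Spp1 and Ecel1 mark the ends of a gradient among TRN neurons, and nuclei with only Spp1 were compared with nuclei with only Ecel1. Of the members outside the arrays, 5 of 26 were higher in Spp1-only nuclei (Pcdh7, Pcdh8, Pcdh9, Cdh7 and Cdh18) and 7 lower (Cdh4, Cdh11, Cdh12, Cdh22, Cdh24, Pcdh19 and Pcdh20). By the same rule 8.79% of all genes were higher and 9.62% lower, against 19.2% and 26.9% of these members. The median number of detected genes was 5265 in Spp1-only and 4513 in Ecel1-only nuclei, and its part in the differences was not tested.

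Promoter sequences are shown for the 5 members outside the arrays that had the clearest plate pattern among those with a RefSeq entry: 4 that were higher in Spp1-only nuclei and Pcdh19, which was lower. Each line runs 5′ to 3′ on the gene's strand from 250 bases before to 50 bases after a transcription start in RefSeq, build GRCm38.p6. Pcdh9 lies at chr14:93890630-93890929 (minus strand, the most upstream of 2 starts listed), Pcdh7 at chr5:57717831-57718130 (plus), Cdh18 at chr15:23036213-23036512 (plus), Cdh7 at chr1:109982650-109982949 (plus, the most upstream of 3) and Pcdh19 at chrX:133688944-133689243 (minus). The Cdh18 window, at the only start listed, lies well inside the gene as GENCODE annotates it, which begins at chr15:22549022. A promoter at that upstream end is not shown. Capitals mark CCAATCA on either strand, which reads TGATTGG where it lies on the other.
Pcdh9: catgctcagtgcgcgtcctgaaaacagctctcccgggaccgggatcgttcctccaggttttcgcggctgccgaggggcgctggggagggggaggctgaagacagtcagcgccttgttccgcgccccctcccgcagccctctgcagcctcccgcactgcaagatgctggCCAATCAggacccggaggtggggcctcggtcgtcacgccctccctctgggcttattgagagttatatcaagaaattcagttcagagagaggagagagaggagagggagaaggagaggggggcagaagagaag
Pcdh7: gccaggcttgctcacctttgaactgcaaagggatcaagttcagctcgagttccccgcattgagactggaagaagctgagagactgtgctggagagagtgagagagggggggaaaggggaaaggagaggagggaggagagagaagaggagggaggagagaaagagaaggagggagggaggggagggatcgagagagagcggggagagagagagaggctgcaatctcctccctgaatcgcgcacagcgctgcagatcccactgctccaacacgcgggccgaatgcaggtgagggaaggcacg
Cdh18: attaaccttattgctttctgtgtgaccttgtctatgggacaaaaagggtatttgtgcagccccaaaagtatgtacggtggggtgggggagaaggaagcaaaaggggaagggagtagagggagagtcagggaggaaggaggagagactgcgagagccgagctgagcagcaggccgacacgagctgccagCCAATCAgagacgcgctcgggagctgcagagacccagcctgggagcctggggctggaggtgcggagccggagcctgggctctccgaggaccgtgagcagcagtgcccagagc
Cdh7: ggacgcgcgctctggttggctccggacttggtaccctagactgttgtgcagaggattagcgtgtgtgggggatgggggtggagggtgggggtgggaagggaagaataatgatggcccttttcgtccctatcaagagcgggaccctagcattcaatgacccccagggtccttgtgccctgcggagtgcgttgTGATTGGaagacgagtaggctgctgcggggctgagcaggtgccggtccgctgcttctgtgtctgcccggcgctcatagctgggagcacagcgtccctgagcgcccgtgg
Pcdh19: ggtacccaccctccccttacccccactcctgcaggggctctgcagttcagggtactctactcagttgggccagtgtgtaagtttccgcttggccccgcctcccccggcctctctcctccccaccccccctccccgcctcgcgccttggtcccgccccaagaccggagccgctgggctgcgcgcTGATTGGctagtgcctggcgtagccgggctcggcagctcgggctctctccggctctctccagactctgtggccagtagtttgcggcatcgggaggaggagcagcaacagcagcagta
CCAATCA ended 75 bases before the start in Pcdh9, 55 in Cdh18, 52 in Cdh7 and 60 in Pcdh19, and was not in the Pcdh7 window. It was chosen after reading these promoters. Among all 32851 RefSeq promoters of this length, 7.82% held it on either strand, as did 6 of the 22 members whose promoters were read. The letters CANNTG were in 72.3% of all promoters and in those of 13 of the 22 members, TAATTA in 5.29% and 1 member, and TATAAA in 13.6% and 2 members. These matches are descriptions of the letters only. The carriers include members that were higher and a member that was lower in Spp1-only nuclei.

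Pcdh9 was the most abundant member with a difference. Spp1-only nuclei averaged between 501.99 and 1120.9 TPM on the 8 NeuN-selected plates (501.99, 564.2, 645.001, 825.3, 910.3, 967.97, 1025.8 and 1120.9 TPM). Ecel1-only nuclei of the same plates averaged between 144.2 and 509.5 TPM (144.2, 157.7, 228.1, 343.5, 442.6, 457.03, 460.8 and 509.5 TPM). Within each plate Spp1-only nuclei were higher (8 of 8), and across plates the ranges overlapped only between 501.99 and 509.5 TPM. The means were 838.99 TPM in Spp1-only, 668.6 TPM in nuclei with both genes, 484.9 TPM in nuclei with neither and 328.02 TPM in Ecel1-only nuclei. The share of nuclei with Pcdh9 was 97.4% (95% interval 94.8 to 98.96%) in Spp1-only and 82.7% (95% interval 77.1 to 87.5%) in Ecel1-only nuclei. Because Pcdh9 was also high in oligodendrocyte-like nuclei, the oligodendrocyte markers are given beside it: they summed to 674.4 TPM in Spp1-only nuclei (82.7 to 1341.9 over plates) and 545.2 TPM in Ecel1-only nuclei (17.6 to 3749.2), with none of the 8 at 0. Their part in the difference was not tested.

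Pcdh7, a delta protocadherin, averaged 83.1 TPM in Spp1-only nuclei and 30.5 TPM in Ecel1-only nuclei, and was higher on 8 of 8 plates. The type II cadherins Cdh7 and Cdh18 followed it. Cdh7 averaged 48.4 TPM in Spp1-only and 15.6 TPM in Ecel1-only nuclei, and Cdh18 90.04 and 33.7 TPM, each higher on 7 of 8 plates. Cdh18 lay just under 2-fold with classes drawn by marker gates (log2 ratio 0.93). Pcdh8 was low (5.92 against 1.59 TPM), and its direction turned with marker gates (log2 ratio -0.17). Cdh13 did not pass 2-fold in either direction, at 576.4 TPM in Spp1-only and 573.3 TPM in Ecel1-only nuclei.

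On the Ecel1 side, Pcdh19, an X-linked delta protocadherin whose human gene is mutated in an epilepsy of girls, averaged 6.10 TPM in Spp1-only nuclei and 26.3 TPM in Ecel1-only nuclei. It was lower in Spp1-only nuclei on 8 of 8 plates (log2 ratio -1.94). Cdh11 (OB-cadherin), a type II member first known from bone, averaged 15.02 TPM in Spp1-only and 38.6 TPM in Ecel1-only nuclei and was also lower on 8 of 8 plates. Cdh22 averaged 3.85 TPM in Spp1-only and 16.7 TPM in Ecel1-only nuclei but was lower on only 3 of 8 plates. Cdh4 (0.478 against 4.49 TPM), Cdh12 (1.23 against 5.15 TPM), Cdh24 (0.195 against 3.21 TPM) and Pcdh20 (2.56 against 7.15 TPM) were low in both. Cdh24 turned direction without 1 plate (log2 ratio 0.11). Cdh24 was no longer lower on NeuN-selected plates alone (log2 ratio 0.25), so it rests on plates without NeuN selection.

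**Figure D3:**
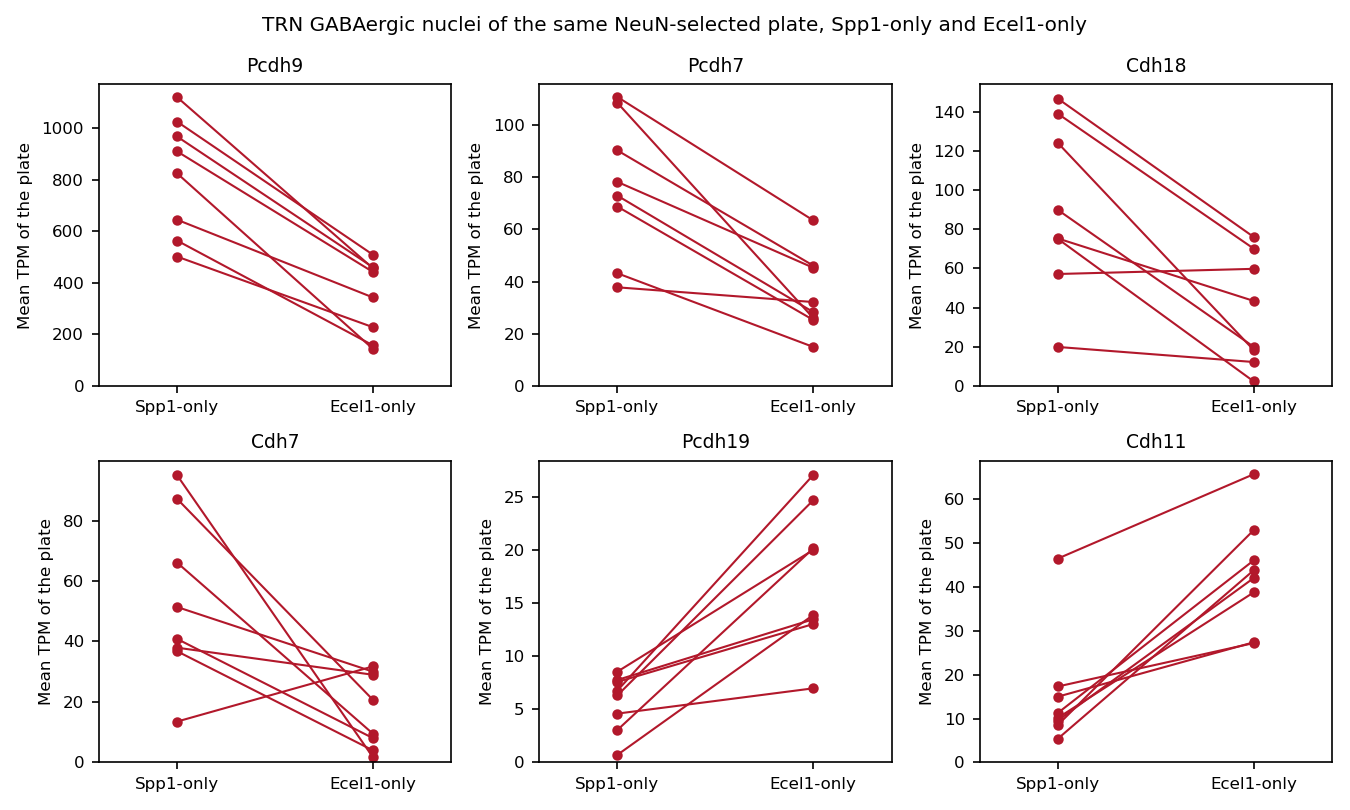
Mean TPM of members in Spp1-only nuclei (left) and Ecel1-only nuclei (right) of the same NeuN-selected plate, joined by a line for each of 8 plates. Pcdh9 and Pcdh7 are higher in Spp1-only nuclei on 8 of 8 plates, and Pcdh19 and Cdh11 are lower on 8 of 8.

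The Pvalb-low GABAergic cluster of the TRN plates, compared after its values had been seen, differed from TRN GABAergic nuclei in many classical members. Outside the arrays 14 of 28 were higher and 2 lower, beside 12.8% and 11.3% of all genes, and type II cadherins made up 7 of the higher ones. The median ratio of these members was 1.01, beside 0.01 over all genes. Cdh22 averaged 49.9 TPM in Pvalb-low nuclei and 7.75 TPM in TRN GABAergic nuclei, and Cdh12 15.9 and 2.55 TPM, each higher on 8 of 8 shared plates. Cdh24 (28.4 against 1.45 TPM), Cdh4 (19.9 against 2.33 TPM), Pcdh8 (33.6 against 3.14 TPM) and Cdh23, the partner of Pcdh15 in hair-cell tip links (18.4 against 0.628 TPM), were higher as well. Pcdh1, at 7.45 TPM in Pvalb-low and 30.1 TPM in TRN GABAergic nuclei, was lower on 8 of 8 plates, and Cdh7 was lower at 9.09 against 30.2 TPM.

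Cdh19 and Cdh20 were also higher in Pvalb-low nuclei, at 10.5 and 16.4 TPM, against 0.766 and 1.63 TPM in TRN GABAergic nuclei, but Cdh20 did not keep its direction on plates without NeuN selection (log2 ratio -0.20). Marker genes of other classes moved with them. The oligodendrocyte markers summed to 2021.7 TPM in Pvalb-low and 718.6 TPM in TRN GABAergic nuclei, and the thalamic glutamatergic markers to 295.6 and 49.9 TPM. Their part in these differences was not tested.

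The other splits concerned tissue block, sort and method. The adjacent GABAergic nuclei were chosen by the same markers as the TRN class, and 7 other GABAergic nuclei of those plates were left out. Their 6 TRN markers summed to 2615.8 TPM, against 2332.1 TPM in TRN GABAergic nuclei, so their likeness to the TRN is in part built in and says nothing of other GABAergic neurons of that tissue. Outside the arrays, they had 1 of 26 members higher than TRN GABAergic nuclei (Cdh4, 11.7 against 2.33 TPM) and 3 lower (Cdh10, Pcdh1 and Pcdh18), beside 7.86% and 21.5% of all genes. Cdh13 and Pcdh9 averaged 592.6 and 633.3 TPM there, against 599.7 and 583.4 TPM. NeuN-selected TRN GABAergic nuclei had 1 of 26 higher than unselected ones (Cdh20, 2.23 against 0.290 TPM) and 3 lower (Cdh4, Cdh24 and Pcdh19), beside 9.46% and 6.45% of all genes. Cdh24 turned direction without 1 plate (log2 ratio 0.58). Patch-seq cells had 1 of 26 higher than NeuN-selected nuclei (Cdh24, 4.82 against 0.638 TPM) and 1 lower (Pcdh7, 27.6 against 57.4 TPM), beside 11.4% and 27.7% of all genes. Cdh13 averaged 388.6 TPM in Patch-seq cells and 560.2 TPM in NeuN-selected nuclei, and Pcdh9 364.1 and 626.5 TPM. The microglia markers summed to 705.6 TPM in Patch-seq cells and 5.08 TPM in NeuN-selected nuclei, and the oligodendrocyte markers to 5243.5 and 882.5 TPM.

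The clustered protocadherins were low taken singly and substantial in sum. In TRN GABAergic nuclei the 59 genes summed to 695.04 TPM, with 169.6 TPM from the alpha, 267.6 TPM from the beta and 257.8 TPM from the gamma array. Pcdhac2, a C-type gene needed for the even spacing of serotonergic axons in mice, led with 42.1 TPM in 27.1% (95% interval 23.8 to 30.6%) of nuclei. Pcdhb16 followed at 41.99 TPM and Pcdhgc4, a C-type gene on which interneuron survival depends in mice, at 41.1 TPM in 31.7% of nuclei. Pcdhb5 stood apart in how often it was found: 43.1% (95% interval 39.4 to 46.9%) of nuclei held it at a mean of only 5.30 TPM. It was also the variable isoform found most often in thalamic glutamatergic (48.99%), GFP-sorted GABAergic (49.4%), oligodendrocyte-like (28.3%) and astrocyte-like nuclei (37.5%) and in Patch-seq cells (74.7%). Where found, its median was only 2.79 TPM in oligodendrocyte-like and 3.9 TPM in astrocyte-like nuclei. In TRN GABAergic nuclei with under 3000 detected genes it was found in 40.5%, at a median of 1.99 TPM. Whether such trace values reflect use of this isoform was not tested.

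Per nucleus, the median TRN GABAergic nucleus had 6 clustered genes above 0 TPM (quartiles 4 and 9, highest 18). The median was 8 in thalamic glutamatergic, 6 in GFP-sorted GABAergic, 3 in astrocyte-like and 1 in oligodendrocyte-like nuclei and 9 in Patch-seq cells. Depth moved with this number: the 37 TRN GABAergic nuclei with under 3000 detected genes had a median of 3. The median variable isoform was found in 8.87% of TRN GABAergic nuclei. A pair of TRN GABAergic nuclei from the same plate shared a median of 7.69% of the variable isoforms found in either, over 16102 pairs, and 40.6% of pairs shared none. The share of pairs with none in common was 24.9% in Patch-seq cells, 29.6% in thalamic glutamatergic and 40.8% in GFP-sorted GABAergic nuclei. It was largest in astrocyte-like (57.2%) and oligodendrocyte-like nuclei (70.5%), where the fewest genes were detected. Isoforms missed at low depth cannot be told apart here from isoforms not used.

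**Figure D4:**
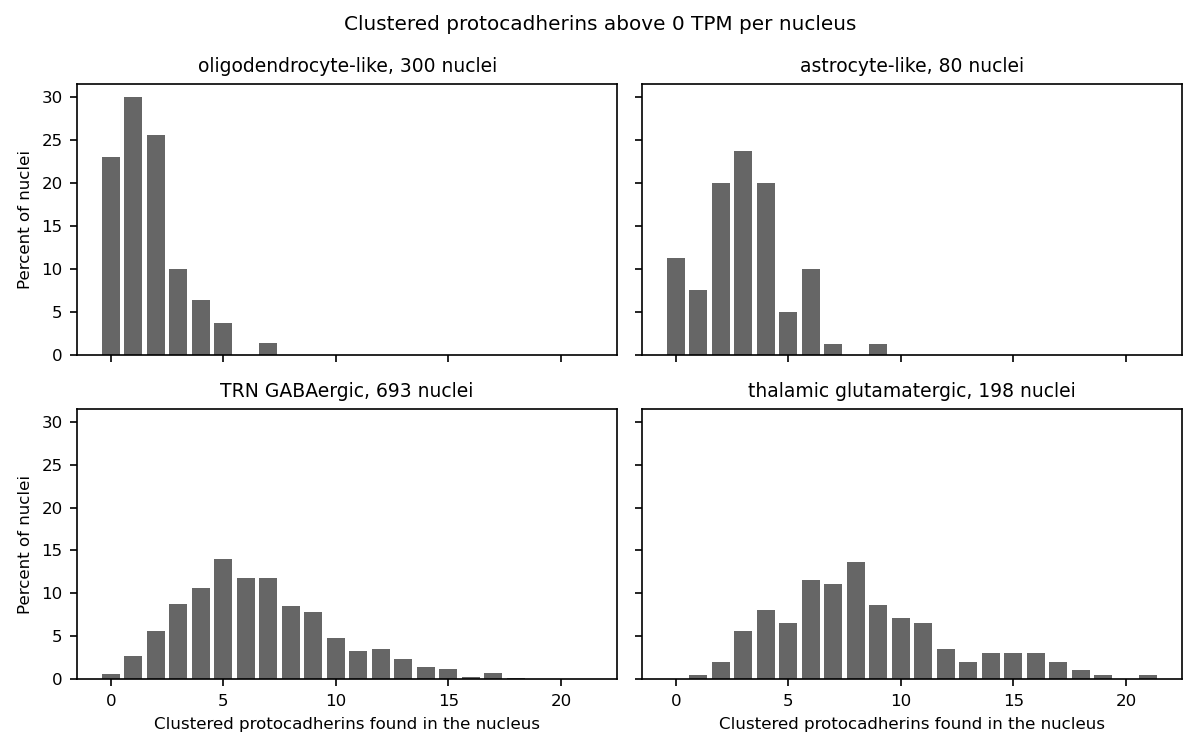
Share of nuclei (percent) by the number of clustered protocadherin genes above 0 TPM in a nucleus, for the classes named in the panels. TRN GABAergic nuclei centre on 6 genes and oligodendrocyte-like nuclei on 1.

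In both comparisons of TRN GABAergic nuclei with another neuron class, the share of clustered members that were lower lay near that of all genes and the share higher lay under it. Of 58 clustered members tested, 1 was higher in TRN GABAergic than in thalamic glutamatergic nuclei (Pcdha2, 9.36 against 3.67 TPM) and 8 were lower, shares of 1.72% and 13.8%, beside 11.5% and 12.4% of all genes. The C-type genes Pcdhgc5 (11.1 TPM in TRN GABAergic, 38.98 TPM in thalamic glutamatergic nuclei) and Pcdhgc3 (4.51 and 17.5 TPM) were among the lower ones. The others were Pcdha12, Pcdhac1, Pcdhb3, Pcdhb6, Pcdhgb5 and Pcdhgb8, none above the 35.02 TPM of Pcdha12 in thalamic glutamatergic nuclei. Pcdhgb8 turned direction on plates without NeuN selection (log2 ratio 0.56). The variable alpha genes ranged from 4.20 (Pcdha1) to 16.4 TPM (Pcdha5) in TRN GABAergic nuclei, the beta genes from 0.0983 (Pcdhb1) to 41.99 TPM (Pcdhb16) and the variable gamma genes from 2.201 (Pcdhgb5) to 23.04 TPM (Pcdhgb1). Against GFP-sorted GABAergic nuclei, 2 of 58 clustered members were higher in the TRN (Pcdhb9, 19.5 against 4.55 TPM, and Pcdha12) and 10 lower, led by Pcdhb6 (5.78 against 25.2 TPM). These were 3.45% and 17.2%, beside 8.42% and 16.3% of all genes.

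In the forebrain the C-type genes differed in opposite directions between GFP-sorted glutamatergic and GABAergic nuclei, whose regions were not matched. The part of region was not tested. Pcdhgc5 averaged 93.03 TPM in GFP-sorted glutamatergic nuclei and 26.9 TPM in GFP-sorted GABAergic nuclei, and was higher on 9 of 9 shared plates. Pcdhgc4, by contrast, averaged 17.2 TPM in GFP-sorted glutamatergic nuclei and 49.7 TPM in GABAergic ones (log2 ratio -1.47), and Pcdhac2 averaged 21.9 and 53.5 TPM. In TRN GABAergic and thalamic glutamatergic nuclei Pcdhgc4 stood at 41.1 and 43.2 TPM and did not pass 2-fold. Within the TRN, Pcdhgc5 was lower in Spp1-only than in Ecel1-only nuclei (3.55 and 19.8 TPM, lower on 6 of 8 plates). The other lower ones were Pcdha11, Pcdhb2, Pcdhb4 and Pcdhgb2, and Pcdha12, Pcdhb7 and Pcdhb22 were higher. Pcdhb2 turned direction without 1 plate (log2 ratio 0.068), with marker gates (0.10) and on NeuN-selected plates (0.20), and Pcdhb4 on plates without NeuN selection (0.23). Pcdhb7 averaged 18.7 TPM in Spp1-only and 5.61 TPM in Ecel1-only nuclei, and Pcdhb22 16.4 and 6.18 TPM. Pcdhgc5 was thus 1 of 5 lower and 3 higher among 58 clustered members. These were 8.62% and 5.17% of the clustered members, beside 9.62% and 8.79% of all genes, so neither share exceeded the background.

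The arrays parted in glia, whose nuclei came almost all from plates without NeuN selection. The alpha array summed to 8.35 TPM in oligodendrocyte-like and 0.0793 TPM in astrocyte-like nuclei, against 169.6 TPM in TRN GABAergic nuclei (76.7 to 237.2 over plates). Of the 15 alpha members, 14 were lower in oligodendrocyte-like and all 15 in astrocyte-like nuclei, 93.3% and 100% beside 37.9% and 41% of all genes. The gamma array instead summed to 284.9 TPM in oligodendrocyte-like and 724.97 TPM in astrocyte-like nuclei, against 257.8 TPM in TRN GABAergic nuclei. Of 22 gamma members, 7 were higher and 2 lower (Pcdhga2 and Pcdhgc4) in oligodendrocyte-like nuclei, and 14 higher and 0 lower in astrocyte-like nuclei. The higher shares were 31.8% and 63.6%, beside 16.6% and 19.8% of all genes, and the lower shares 9.09% and 0%, beside 37.9% and 41%. The higher gamma members of oligodendrocyte-like nuclei rest on few nuclei, such as 3% for Pcdhgb8 and 2.33% for Pcdhgb2. With the difference of mean log2 values, Pcdhgb8, Pcdhga11, Pcdhgb2, Pcdhgb5 and Pcdhga10 turned to the lower side (-0.16 to -0.013). In astrocyte-like nuclei some higher gamma members also rest on few of the 80 nuclei, such as 4 for Pcdhgb5 and 5 for Pcdhga1. Pcdhgc3 was found in 21. The beta array lay between, at 79.8 and 186.2 TPM, against 267.6 TPM. Its sum in astrocyte-like nuclei includes genes found in 1 nucleus each, such as Pcdhb8 (1914.5 TPM) and Pcdhb12 (1002.24 TPM).

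The same split appeared in the share of nuclei with any member of an array. Any alpha member was found in 5.33% of oligodendrocyte-like nuclei (95% interval 3.08 to 8.52%) and 2.50% of astrocyte-like nuclei (0.304 to 8.74%), against 84.3% of TRN GABAergic nuclei. In the 37 TRN GABAergic nuclei with under 3000 detected genes, a depth nearer to that of glia, any alpha member was found in 45.9% (29.5 to 63.1%). Any gamma member was found in 63.7% of oligodendrocyte-like and 83.8% of astrocyte-like nuclei, against 90.9% of TRN GABAergic nuclei and 59.5% of the shallow ones. The alpha shares of both glial classes lay below that of the shallow TRN GABAergic nuclei, whereas the gamma share of oligodendrocyte-like nuclei lay within the interval of the shallow ones (42.1 to 75.2%) and that of astrocyte-like nuclei above it.

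Pcdhgc3, a C-type gamma gene that shapes dendrites of mouse cortical neurons, was the gamma member most raised in astrocyte-like nuclei. It averaged 84.2 TPM there and 3.52 TPM in oligodendrocyte-like nuclei, against 4.51 TPM in TRN GABAergic nuclei. Its share of nuclei was 26.2% (95% interval 17.04 to 37.3%) in the astrocyte-like and 4.76% (95% interval 3.30 to 6.62%) in the TRN GABAergic class. Among variable gamma genes, Pcdhga4 averaged 68.5 TPM in astrocyte-like nuclei and 18.9 TPM in TRN GABAergic nuclei, and Pcdhga8 48.5 and 8.15 TPM. They were found in 9 and 7 of the 80 astrocyte-like nuclei. Pcdhgb4, the leading clustered gene of oligodendrocyte-like nuclei, averaged 32.9 TPM there and 55.02 TPM in astrocyte-like nuclei, against 13.9 TPM in TRN GABAergic nuclei, but was under 2-fold in both on plates without NeuN selection (log2 ratios 0.15 and 0.91). Pcdhac2 was listed at 0 in all 80 astrocyte-like nuclei and averaged 1.03 TPM in oligodendrocyte-like nuclei, against 42.1 TPM in TRN GABAergic nuclei, and Pcdhb15 was listed at 0 in both glial classes, against 20.9 TPM. Only 1 plate held 10 or more astrocyte-like nuclei, so no plate range can be given for them.

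**Figure D5:**
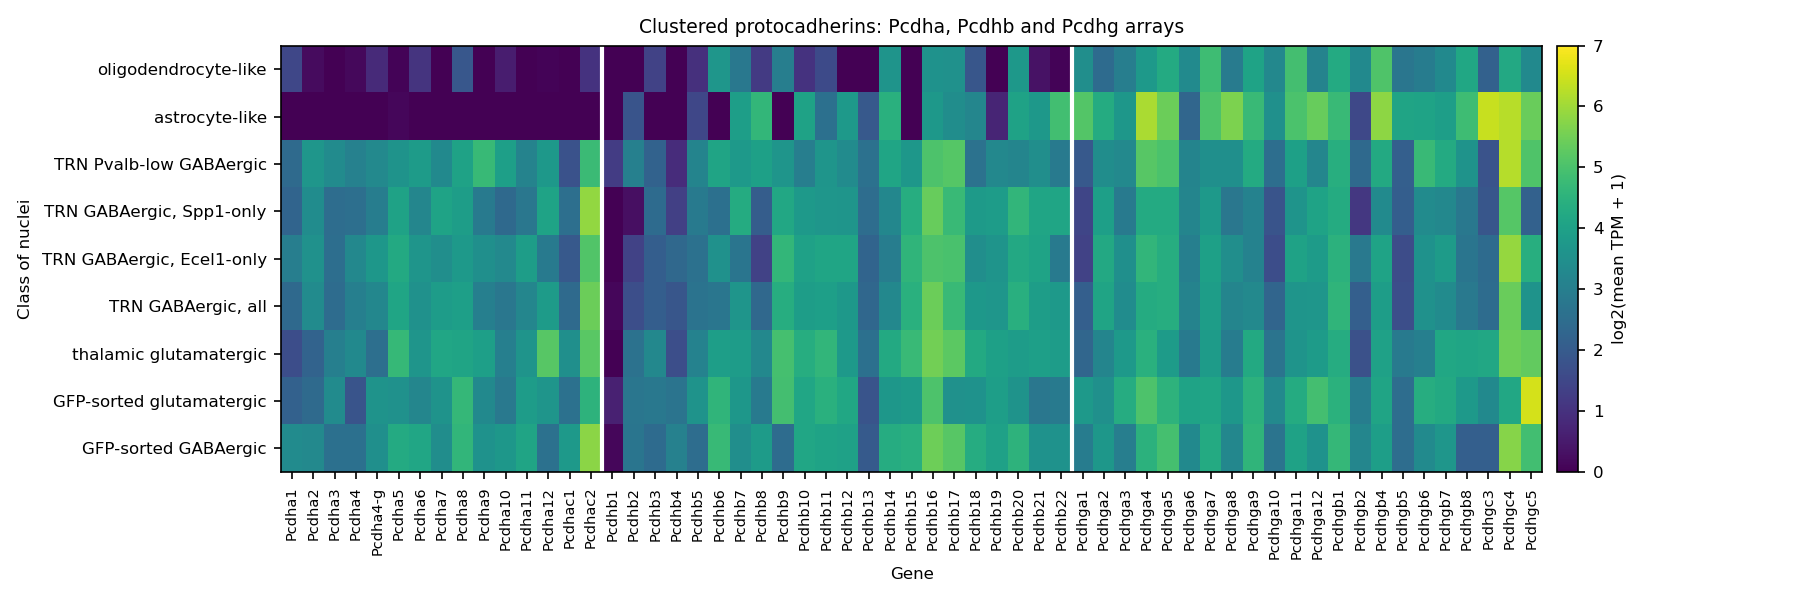
Mean TPM of each clustered protocadherin by cell class, in the order alpha, beta and gamma, on a log2(TPM + 1) colour scale. Alpha members sum to 0.0793 TPM in astrocyte-like and 169.6 TPM in TRN GABAergic nuclei, whereas gamma members sum to 724.97 and 257.8 TPM.

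In Patch-seq cells 19 of 58 clustered members were lower than in NeuN-selected TRN GABAergic nuclei and 2 higher (Pcdhga1 and Pcdhgc3), shares of 32.8% lower and 3.45% higher, beside 27.7% and 11.4% of all genes. Pcdhb16 averaged 5.37 TPM in Patch-seq cells and 48.2 TPM in NeuN-selected nuclei, and Pcdhac2 14.3 and 47.5 TPM. Without the batch tagged L004 in its names, 42 members of any family differed in Patch-seq cells in place of 23, 38 of them lower. Adjacent GABAergic nuclei had 11 clustered members higher and 16 lower among 58, from 40 nuclei on 4 plates. These were 18.97% and 27.6%, beside 7.86% and 21.5% of all genes. The 31 members of any family that differed there were 4 with a pseudocount of 10 TPM and 0 with the difference of mean log2 values, for which no test was run. Pcdhgb8, Pcdhga9, Pcdha11, Pcdhgb7 and Pcdhb2 turned direction there when 1 plate was left out. Between NeuN-selected and unselected TRN GABAergic nuclei, 6 of 58 clustered members were higher and 4 lower (Pcdhgb4, Pcdhga10, Pcdhgb1 and Pcdha4-g), 10.3% and 6.90% beside 9.46% and 6.45% of all genes. Pcdhb4 led the higher ones (3.77 against 0.138 TPM), and Pcdhgb4 averaged 7.12 TPM in NeuN-selected and 29.1 TPM in unselected nuclei. In Pvalb-low nuclei (led by Pcdha9, 25.2 against 7.07 TPM) 9 of 59 were higher and 2 lower (Pcdhb18 and Pcdhb20), 15.3% and 3.39% beside 12.8% and 11.3% of all genes.

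Partners of the cadherins were read from lists of pathway genes. Among 11 catenins and linkers, Ctnna3 and Mllt4 were higher in TRN GABAergic than in thalamic glutamatergic nuclei, and Jup and Ctnnd1 were lower. Over all genes, 11.5% were higher and 12.4% lower in that comparison. Ctnnd1 (p120-catenin), which steadies classical cadherins at the membrane, averaged 28.2 TPM in TRN GABAergic nuclei and 114.3 TPM in thalamic glutamatergic nuclei. Ctnnb1 (beta-catenin) averaged 200.2 TPM in TRN GABAergic nuclei and 73.7 TPM in GFP-sorted GABAergic nuclei. It was the only one of the 11 that was higher in the TRN there, beside 8.42% of all genes. Jup (plakoglobin) averaged 171.1 TPM in oligodendrocyte-like and 45.99 TPM in astrocyte-like nuclei, against 6.03 TPM in TRN GABAergic nuclei. In astrocyte-like nuclei Vcl (vinculin), which ties catenins to actin, averaged 318.4 TPM, against 31.995 TPM. No catenin or linker passed 2-fold between Spp1-only and Ecel1-only nuclei, beside 8.79% of all genes higher and 9.62% lower.

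Of 16 other cadherin-superfamily genes, 12 were tested between TRN GABAergic and thalamic glutamatergic nuclei, with 4 higher and 4 lower. In that comparison 11.5% of all genes were higher and 12.4% lower. Ret, the receptor subunit for GDNF-family ligands, averaged 53.8 TPM in TRN GABAergic nuclei and 3.31 TPM in GFP-sorted GABAergic nuclei. It averaged 30.8 TPM in Spp1-only and 81.05 TPM in Ecel1-only nuclei. Fat4, a giant cadherin of planar polarity, averaged 15.7 TPM in TRN GABAergic and 0.593 TPM in thalamic glutamatergic nuclei, and Clstn2, a synaptic calsyntenin, 7.85 and 50.1 TPM. Celsr3, which guides axon tracts, averaged 1.22 TPM in oligodendrocyte-like and 1.01 TPM in astrocyte-like nuclei, against 83.5 TPM in TRN GABAergic nuclei. Of 12 regulators of the clustered genes, Wapal alone differed between TRN GABAergic and thalamic glutamatergic nuclei (10.1 and 32.6 TPM). Ctcf, whose product organises the choice of clustered promoters, averaged 33.7 TPM in oligodendrocyte-like and 14.02 TPM in TRN GABAergic nuclei. Among 11 genes for cutting of and signalling by cadherins, Ptk2b, a kinase that clustered protocadherins bind and restrain, averaged 3.75 TPM in TRN GABAergic and 78.6 TPM in thalamic glutamatergic nuclei.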

How the data were processed

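Single nuclei and Patch-seq cells of mouse brain were profiled by Smart-seq2, per the labels' protocols. RSEM, Bowtie, TopHat2 2.0.10, Seurat 2.2.0 and the build mm10 are named in the submitters' processing notes, with no role or order. The table of TRN and adjacent nuclei as deposited holds natural log values, ln(x + 1), per the values; they were turned back by exp(value) - 1 and rescaled to 1000000 per nucleus. The tables of forebrain nuclei and Patch-seq cells hold TPM as the authors deposited them. TPM keep no depth, so detected genes stand in for it, and the tables hold no molecular identifiers. The design text counts 9 TRN plates without NeuN selection, whereas plate names give 13.

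Nuclei were clustered (30 principal components, 15 nearest neighbours, Leiden resolution 1, 2000 variable genes without the members) and named from fixed marker lists. The thresholds for naming were set after the markers' values had been seen, and the members and gene lists were chosen with earlier results of these data known. Per class and gene, the mean TPM, the share of nuclei above 0 TPM with an exact (Clopper-Pearson) interval and plate means (plates with at least 10 nuclei) were computed. Genes at least 2-fold apart, after adding 1 TPM, with 1 TPM or more in either class count as different. Up to 12 such members per direction were eligible to be named in each comparison, by size of ratio; other members are given in counts and ranges, and Pcdh10, Pcdh17, Pcdha1, Pcdha5, Pcdhb1 and Pcdhb5 were named after their values were seen. The symbol Pcdha4-g was counted as clustered, which is uncertain. Class sizes marked about are to the nearest 10. Of 94 members, 92 matched GENCODE vM21 and 22 off chromosome 18 have a RefSeq promoter. Clustering used igraph 0.11.9 and scikit-learn 1.9.0, intervals scipy 1.17.1, and tables pandas 2.3.3 in Python 3.11.15. No doublet caller was run. The ratio and 2-fold calling steps were tested on the TRN GABAergic nuclei split at random, with known changes put into some genes of a single part.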

Additional observations from a re-analysis of the deposited data

How the results depend on the processing

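Counts of members past 2-fold were recomputed with another pseudocount, another scale, other clusterings, classes drawn by marker gates, a minimum of 3000 detected genes, plates of a single sort and each plate left out in turn. Settings other than a left-out plate moved 23 of the counts by over 1.5 times. A pseudocount of 10 TPM and the difference of mean log2(TPM + 1) moved every comparison. With the pseudocount of 10 the counts were 8 (TRN GABAergic against thalamic glutamatergic, 20 in the report), 5 (against GFP-sorted GABAergic, 24), 10 (GFP-sorted glutamatergic against GABAergic, 26), 25 (oligodendrocyte-like, 60), 31 (astrocyte-like, 60), 6 (Spp1-only against Ecel1-only, 20), 4 (adjacent, 31), 1 (NeuN-selected, 14), 6 (Patch-seq, 23) and 13 (Pvalb-low, 27). With the difference of mean log2 values they were, in the same order, 8, 6, 12, 18, 17, 9, 0, 3, 5 and 10; no test was run, so the 0 for adjacent nuclei has no p-value behind it. Restricting to plates without NeuN selection gave 40 for TRN GABAergic against thalamic glutamatergic, 36 for Spp1-only against Ecel1-only and 63 for Pvalb-low nuclei, with fewer nuclei in each class.

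Leaving out 1 plate at a time gave 18 to 24 members for TRN GABAergic against thalamic glutamatergic, 21 to 27 against GFP-sorted GABAergic, 24 to 29 for GFP-sorted glutamatergic, 58 to 62 for oligodendrocyte-like, 56 to 63 for astrocyte-like, 19 to 23 for Spp1-only, 31 to 40 for adjacent, 12 to 19 for NeuN-selected, 19 to 42 for Patch-seq and 25 to 30 for Pvalb-low nuclei. The 42 came without the Patch-seq batch tagged L004 in its names. The median of 6 clustered genes per TRN GABAergic nucleus stayed at 6 whichever plate was left out.

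Of 2410 log2 ratios of named members under other settings, 25 changed sign. On plates without NeuN selection these were Cdh19 (0.44) and Pcdhgb8 (0.56) against thalamic glutamatergic nuclei, Pcdhb4 (0.23) in Spp1-only nuclei, and Cdh20 (-0.20), Pcdh20 (-2.09) and Pcdhb8 (-0.48) in Pvalb-low nuclei. With marker gates they were Pcdha1 (0.40) in GFP-sorted glutamatergic nuclei, Pcdh8 (-0.17) and Pcdhb2 (0.10) in Spp1-only nuclei, and Pcdhgb8 (-3.08), Pcdhb3 (-1.84), Pcdhb2 (-0.81) and Pcdhb15 (0.16) in adjacent nuclei. With the difference of mean log2 values they were Pcdhgb8 (-0.16), Pcdhga11 (-0.16), Pcdhgb2 (-0.074), Pcdhgb5 (-0.023) and Pcdhga10 (-0.013) in oligodendrocyte-like, Pcdhb8 (-0.017) in astrocyte-like and Pcdhb20 (-0.042) in adjacent nuclei. On NeuN-selected plates Cdh24 (0.25) and Pcdhb2 (0.20) turned in Spp1-only nuclei. Leiden resolution 2 turned Pcdhgb8 (-0.50) in adjacent nuclei. Counting the Pvalb-low cluster with the TRN, an alternative added after seeing the data, turned Pcdh8 (-0.67) in Spp1-only and Pcdha4-g (0.34) in adjacent nuclei.

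Among 4086 ratios with 1 plate left out, 10 changed sign. Their lowest and highest ratios were -1.99 to 0.22 for Pcdhb8 in GFP-sorted glutamatergic and -2.28 to 2.76 in astrocyte-like nuclei. In Spp1-only nuclei they were -2.10 to 0.11 for Cdh24 and -1.32 to 0.068 for Pcdhb2, and in NeuN-selected nuclei -1.91 to 0.58 for Cdh24. In adjacent nuclei they were -0.36 to 2.25 for Pcdhgb8, -0.046 to 1.94 for Pcdhga9, -0.27 to 1.95 for Pcdha11, -0.52 to 1.68 for Pcdhgb7 and -1.67 to 1.78 for Pcdhb2. The causes were not tested. Glial counts with at least 3000 detected genes or on NeuN-selected plates alone were not computed, since fewer than 10 nuclei remained. No paired analysis was possible because replicate numbers only name nuclei and no test was run; classes on the same plate were set side by side as a description only. Depth is unknown, so a member listed at 0 is not shown to be absent.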

Other observations

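The 43 hippocampal nuclei without a sort label held 11 glutamatergic and 8 GABAergic nuclei, which entered no comparison. Cdh13 averaged 5.66 TPM in the glutamatergic and 166.9 TPM in the GABAergic nuclei. Pcdh9 averaged 368.002 TPM in the glutamatergic and 410.98 TPM in the GABAergic nuclei, and Pcdhgc5 150.1 and 38.5 TPM. These are values of few nuclei from 1 plate.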
